A study of Mus musculus with 8 samples.

Results

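The genes described here encode the extracellular arm of Wnt signalling: the Wnt ligands, their Frizzled receptors and Lrp co-receptors, the secreted antagonists, the R-spondins with their Lgr receptors, and Axin2. They were taken by symbol from the array rows that carry exactly 1 gene symbol, with the row of the highest mean over the 8 arrays standing for a gene. This gave 48 genes, each read by a single row, of 19310 genes on 20748 such rows. Messenger RNA was measured in epididymal white adipose tissue, a fat pad beside the epididymis, on 4 arrays labelled Rev-erb alpha KO and 4 labelled WT. All 8 samples came from male C57BL/6 mice 12 to 15 weeks old, fed a standard diet under alternating light and dark periods of 12 h each, and tissue was taken at Zeitgeber time 10. How the knockout was made, and whether each array is a separate mouse, was not given in the labels, so p-values measure the spread between these arrays.

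Wnt proteins are lipid-modified signals that bind a Frizzled receptor together with Lrp5 or Lrp6 and, in the canonical branch, keep beta-catenin from being degraded so that it can act with TCF and LEF factors in the nucleus. Secreted Frizzled-related proteins (Sfrp) and Wif1 bind Wnt proteins. Some Dickkopf proteins (Dkk), such as Dkk1, bind the Lrp co-receptors. R-spondins, through Lgr receptors, raise the number of Frizzled receptors at the cell surface. In fat tissue, canonical Wnt signals hold back the conversion of precursor cells into adipocytes. Rev-erb alpha, encoded by Nr1d1, is a nuclear receptor of the circadian clock that represses transcription.

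The labels were checked first on the targeted gene. The Nr1d1 row read 9.56, 9.28, 8.90 and 8.80 log2 on the knockout-labelled arrays, against 9.47, 9.11, 9.18 and 9.83 log2 on the wild-type arrays. These groups overlapped (log2 fold change −0.26, SE 0.19, limma adjusted p = 0.479). Neither the stretch of Nr1d1 under the probes nor the deleted stretch was stated in the labels, so the row settles nothing about the genotype and the arrays are called knockout-labelled. Arntl, a clock gene that Rev-erb alpha is known to repress, read 6.65 to 6.95 log2 on the knockout-labelled arrays, against 4.80 to 5.19 log2 on the wild-type arrays. The tissue label was checked on adipocyte markers: Adipoq, the adiponectin gene, read 12.1 to 12.3 log2 on the knockout-labelled and on the wild-type arrays, while 9 measured markers of epididymis epithelium had a mean of 3.74 to 3.77 log2 on the knockout-labelled arrays and 3.77 to 3.84 log2 on the wild-type arrays. On a principal component that held 14.7% of the variance, knockout-labelled arrays 1 and 2 (12.8 and 10.7) stood apart from arrays 3 and 4 (−11.4 and −5.91).

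Most Wnt genes did not pass the test between knockout-labelled and wild-type fat, and 5 of the 48 did. The antagonist gene Sfrp5, the co-receptor gene Lrp5 and the ligand gene Wnt11 were higher in the knockout-labelled tissue, and the ligand gene Wnt2b and the R-spondin gene Rspo3 were lower. That is 10.4% of the Wnt genes (limma adjusted p under 0.05, with Benjamini-Hochberg adjustment over all 20748 rows), against 7.40% of all rows, 3.81% higher and 3.59% lower (791 and 745 rows, or 914 and 593 with median centring of the arrays). The median log2 fold change over the 48 genes was −0.01, and that over all rows −0.01. The median absolute log2 fold change was 0.06 over the Wnt genes, against 0.08 over all rows. The groups did not overlap in 6 of the 48 genes (12.5%), against 15.3% of all rows. In 4 of these the knockout-labelled arrays lay above (7.18% of all rows) and in 2 below (8.16% of all rows), so the shares among Wnt genes stood near those of the whole array. In fits added because of the separation of the arrays, Sfrp5, Lrp5, Rspo3 and Lgr4 passed with knockout-labelled arrays 1 and 2 only, and Sfrp5, Sfrp4 and Wnt2b with arrays 3 and 4 only. In the cases where a call was lost the log2 fold change kept its sign. It was 0.33 and 0.26 for Wnt11 (limma adjusted p = 0.0564 and 0.0648), −0.38 for Wnt2b with arrays 1 and 2 (0.0964), and 0.30 for Lrp5 and −0.34 for Rspo3 with arrays 3 and 4 (0.0599 and 0.0801).

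**Figure D1:**
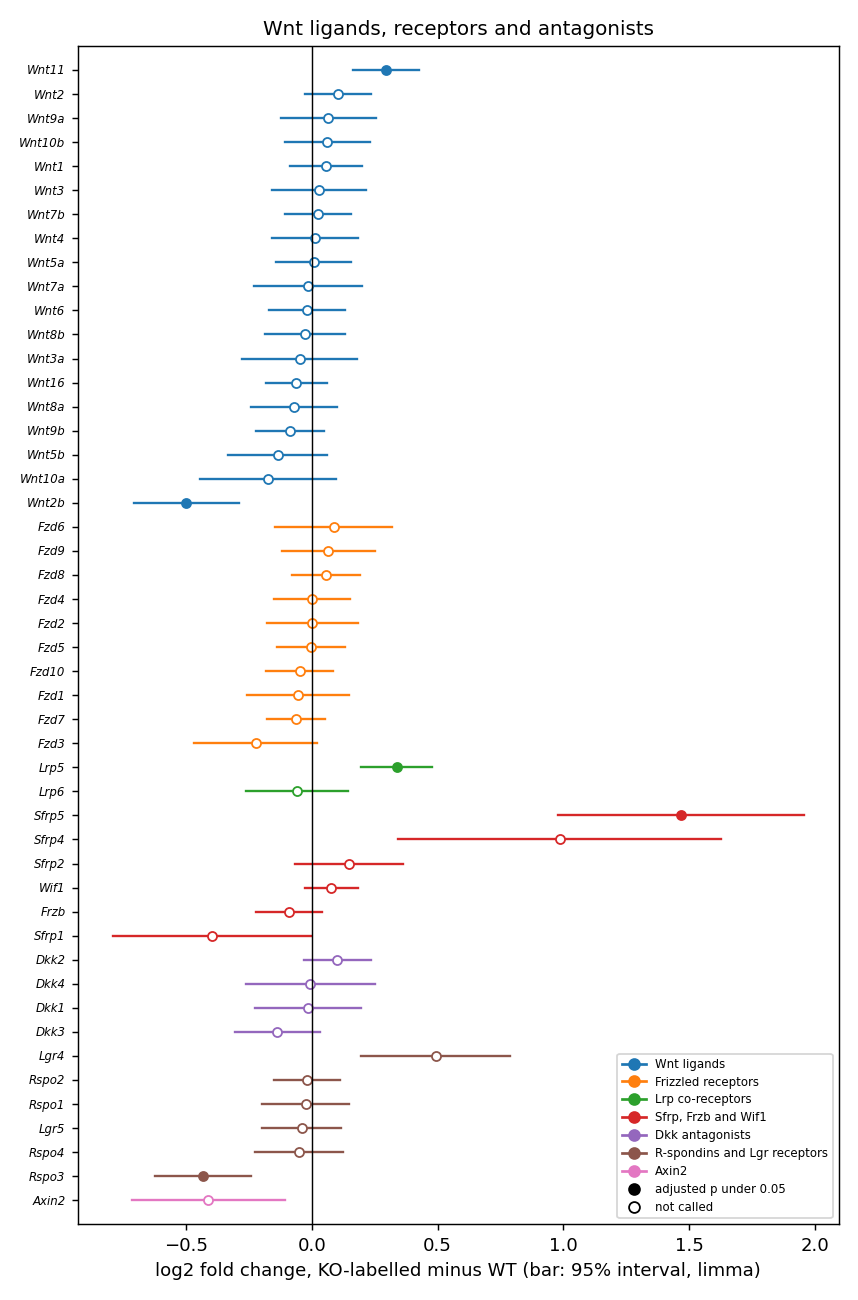
Log2 fold change (knockout-labelled minus wild type, horizontal axis) with its 95% interval from limma for each of the 48 Wnt genes, coloured by role; filled points passed an adjusted p under 0.05. Sfrp5 lies farthest right at 1.47, Wnt2b farthest left at −0.50, and all 10 Frizzled genes have intervals that include 0.

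Sfrp5 had the largest difference among the 48 genes. Sfrp5 (row 10467744) encodes a secreted Frizzled-related protein made by adipocytes that is known to bind Wnt5a. It read 7.45, 8.03, 7.87 and 8.13 log2 on the knockout-labelled arrays, against 6.41, 6.70, 6.78 and 5.72 log2 on the wild-type arrays. The groups stood well apart, the knockout-labelled one higher, with a gap of 0.67 log2 between the nearest arrays. The mean was 7.87 ± 0.30 log2 in knockout-labelled fat and 6.40 ± 0.48 log2 in wild-type fat (SD, n = 4 each). Sfrp5 was thus 2.77-fold higher (log2 fold change 1.47 with a 95% interval of 0.98 to 1.96, SE 0.22, limma adjusted p = 0.00355). With single arrays left out the log2 fold change lay between 1.24 and 1.61. It was the only one of the 48 genes that both passed the test and differed by at least 1.5-fold.

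The other antagonists that bind Wnt proteins had fold changes of either sign, and none of them passed. Sfrp4, whose protein is known in humans to be secreted by fat tissue, read 6.15, 6.11, 6.33 and 7.47 log2 on the knockout-labelled arrays, against 5.87, 5.67, 4.95 and 5.63 log2 on the wild-type arrays. The groups did not overlap, but knockout-labelled array 4 lay more than 1 log2 above its fellows, and the log2 fold change of 0.99 (SE 0.29) missed the threshold (limma adjusted p = 0.0687), being 0.67 at its lowest with single arrays left out. Sfrp1 read 6.63, 7.00, 7.02 and 6.31 log2 on the knockout-labelled arrays, against 7.49, 7.24, 6.77 and 7.05 log2 on the wild-type arrays. These groups overlapped (log2 fold change −0.40, SE 0.18, limma adjusted p = 0.223), with a 95% interval of −0.79 to −0.0044. Sfrp2 averaged 8.27 ± 0.14 log2 in knockout-labelled fat and 8.12 ± 0.18 log2 in wild-type fat (SD, n = 4 each; limma adjusted p = 0.432). For Frzb, also known as a Frizzled-related protein, and Wif1, the Wnt inhibitory factor, the log2 fold changes were −0.09 and 0.08. Both rows were among the dimmest 33.3% of all rows. Among all 48 genes, the 3 with the largest SD over the knockout-labelled arrays were Sfrp4 (0.64 log2), Sfrp1 (0.34 log2) and Sfrp5 (0.30 log2), and the wild-type SD was largest for Sfrp5 and Sfrp4.

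Of 17 pairs of rows within the Lrp, Sfrp and R-spondin families, Sfrp1 minus Sfrp5 differed most between the groups. This pair carries the Sfrp5 difference given above and is no separate result. Within an array it lay between −1.82 and −0.82 log2 on the knockout-labelled arrays, against −0.02 to 1.33 log2 on the wild-type arrays, a description of these arrays with no test.

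**Figure D2:**
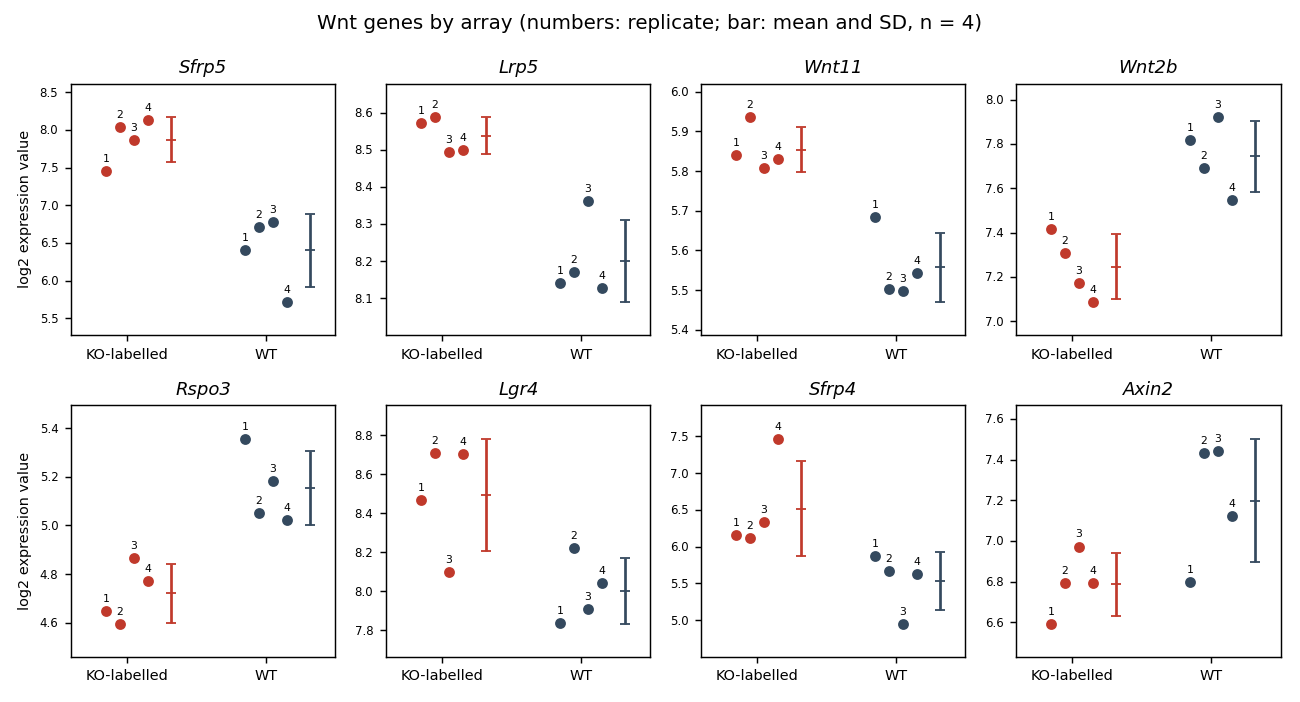
Log2 expression value of 8 Wnt genes on each array (points, numbered by replicate) with the mean and SD of each group of 4, knockout-labelled left and wild type right; each panel has its own vertical scale. The groups part without overlap for Sfrp5, Lrp5, Wnt11, Wnt2b, Rspo3 and Sfrp4, and overlap for Lgr4 and Axin2.

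Of the 19 Wnt ligand genes, Wnt11 rose, Wnt2b fell and 17 did not pass. Wnt2b (row 10500938), a ligand of the canonical branch, read 7.42, 7.31, 7.17 and 7.09 log2 on the knockout-labelled arrays, against 7.82, 7.69, 7.92 and 7.55 log2 on the wild-type arrays. All knockout-labelled values lay below all wild-type values (log2 fold change −0.50, SE 0.094, 1.41-fold lower, limma adjusted p = 0.0103). Wnt11 (row 10555186), a ligand known mainly for signals that do not run through beta-catenin, read 5.84, 5.94, 5.81 and 5.83 log2 on the knockout-labelled arrays, against 5.68, 5.50, 5.50 and 5.54 log2 on the wild-type arrays. The difference was small, and without overlap (log2 fold change 0.30, SE 0.059, 1.23-fold higher, limma adjusted p = 0.0137). The log2 fold changes of the other 17 lay between −0.17 and 0.10, and their 95% intervals together spanned −0.45 to 0.25. Of the 19 ligand rows, 6 were among the dimmest 33.3% of all rows, as were 13 of the 48 Wnt rows. For such dim rows a narrow interval does not show that expression was unchanged. Wnt2, close kin of Wnt2b, had a log2 fold change of 0.10 (SE 0.060, limma adjusted p = 0.348). Among ligands much studied in fat, chosen after their values were seen, Wnt10b, known to hold back adipocyte formation in mice, differed by 0.06 log2 and Wnt5a by 0.01 log2. In the gene table of the GRCm38.p6 assembly, 4 pairs of these ligand genes have no other protein-coding gene between them (Wnt6 with Wnt10a, Wnt3a with Wnt9a, Wnt9b with Wnt3, and Wnt10b with Wnt1), and no gene of these pairs passed.

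None of the 10 Frizzled receptor genes passed. Fzd4 read 10.89, 10.88, 10.66 and 10.80 log2 on the knockout-labelled arrays, against 10.67, 10.86, 10.85 and 10.84 log2 on the wild-type arrays, and the groups lay on top of each other (log2 fold change 0.0014, 95% interval −0.15 to 0.15), with a sign that turned when single arrays were left out or with quantile normalization (−0.019). Fzd3 had the largest difference of the family, −0.22 log2 (SE 0.11, limma adjusted p = 0.275). Fzd7 and Fzd8 differed by −0.06 log2 (SE 0.053) and 0.06 log2 (SE 0.061). For each of the 10 genes the 95% interval lay within 1.5-fold in both directions, the widest reach being from −0.47 to 0.32 log2 over the family.

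Of the pair of co-receptor genes, Lrp5 rose and Lrp6 did not pass. Lrp5 (row 10464504), whose product forms the signalling complex with Wnt and Frizzled, read 8.57, 8.59, 8.49 and 8.50 log2 on the knockout-labelled arrays, against 8.14, 8.17, 8.36 and 8.13 log2 on the wild-type arrays. The groups did not overlap, and the SD over the knockout-labelled arrays was 0.049 log2 (log2 fold change 0.34, SE 0.064, 1.26-fold higher, limma adjusted p = 0.0105). Lrp6, the paralogue with the same role, read 8.51, 8.49, 8.10 and 8.21 log2 on the knockout-labelled arrays, against 8.46, 8.38, 8.37 and 8.34 log2 on the wild-type arrays. Its arrays 1 and 2 lay above all wild-type arrays and its arrays 3 and 4 below them, and the mean difference was −0.06 log2 (SE 0.091, limma adjusted p = 0.771), or 0.112 log2 in a fit that kept arrays 1 and 2 of the knockout-labelled group and −0.23 log2 in one that kept arrays 3 and 4 (limma adjusted p = 0.42 and 0.0765). The difference Lrp5 minus Lrp6 was 0.21 ± 0.16 log2 in knockout-labelled fat and −0.19 ± 0.13 log2 in wild-type fat (SD, n = 4 each), a difference that was not tested.

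The 4 Dickkopf genes did not pass. Dkk3 and Dkk2 had the smallest p, differing by −0.14 log2 (SE 0.076, limma adjusted p = 0.338) and by 0.10 log2 (SE 0.060, limma adjusted p = 0.369). Dkk1, the best known inhibitor of the Lrp co-receptors, averaged 5.25 ± 0.12 log2 in knockout-labelled fat and 5.27 ± 0.19 log2 in wild-type fat (SD, n = 4 each), a difference whose sign turned with median centring (0.00379).

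Among the R-spondins and their receptors, Rspo3 fell and 5 genes did not pass. Rspo3 (row 10368495), a secreted enhancer of Wnt signals, read 4.65, 4.60, 4.87 and 4.77 log2 on the knockout-labelled arrays, against 5.36, 5.05, 5.18 and 5.02 log2 on the wild-type arrays. All knockout-labelled values lay below all wild-type values (log2 fold change −0.43, SE 0.086, 1.35-fold lower, limma adjusted p = 0.0134). The row was among the dimmest 33.3% of all rows, and with no detection calls used here it has no bound for its background. Lgr4, an R-spondin receptor, read 8.47, 8.71, 8.10 and 8.70 log2 on the knockout-labelled arrays, against 7.84, 8.22, 7.91 and 8.04 log2 on the wild-type arrays. Knockout-labelled array 3 lay below wild-type array 2, and the log2 fold change of 0.49 (SE 0.13) narrowly missed the threshold (limma adjusted p = 0.0519). Without knockout-labelled array 3 it was 0.63 (limma adjusted p = 0.00852), and over the alternative fits Lgr4 passed in 6 of 16, with adjusted p-values from 0.00852 to 0.137. Rspo1, chosen after its values were seen, differed by −0.02 log2, Rspo4 by −0.05 log2 (limma adjusted p = 0.782) and Lgr5, likewise chosen, by −0.04 log2. Of the 6 rows of R-spondin and Lgr genes, 4 were among the dimmest 33.3% of all rows, Rspo4 and Lgr5 included.

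Axin2, a scaffold protein of the complex that degrades beta-catenin and a widely used read-out of canonical Wnt activity, did not pass. It read 6.59, 6.79, 6.97 and 6.79 log2 on the knockout-labelled arrays, against 6.80, 7.43, 7.44 and 7.12 log2 on the wild-type arrays. Wild-type array 1 lay within the knockout-labelled range and the other wild-type arrays above it (log2 fold change −0.41, SE 0.14, limma adjusted p = 0.103). Without wild-type array 1 the log2 fold change was −0.54 and passed (limma adjusted p = 0.0173). This was the 1 of the 8 fits with an array left out in which Axin2 passed (limma adjusted p 0.104 to 0.231 in the others). Over the alternative fits Axin2 passed in 2 of 16.

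**Figure D3:**
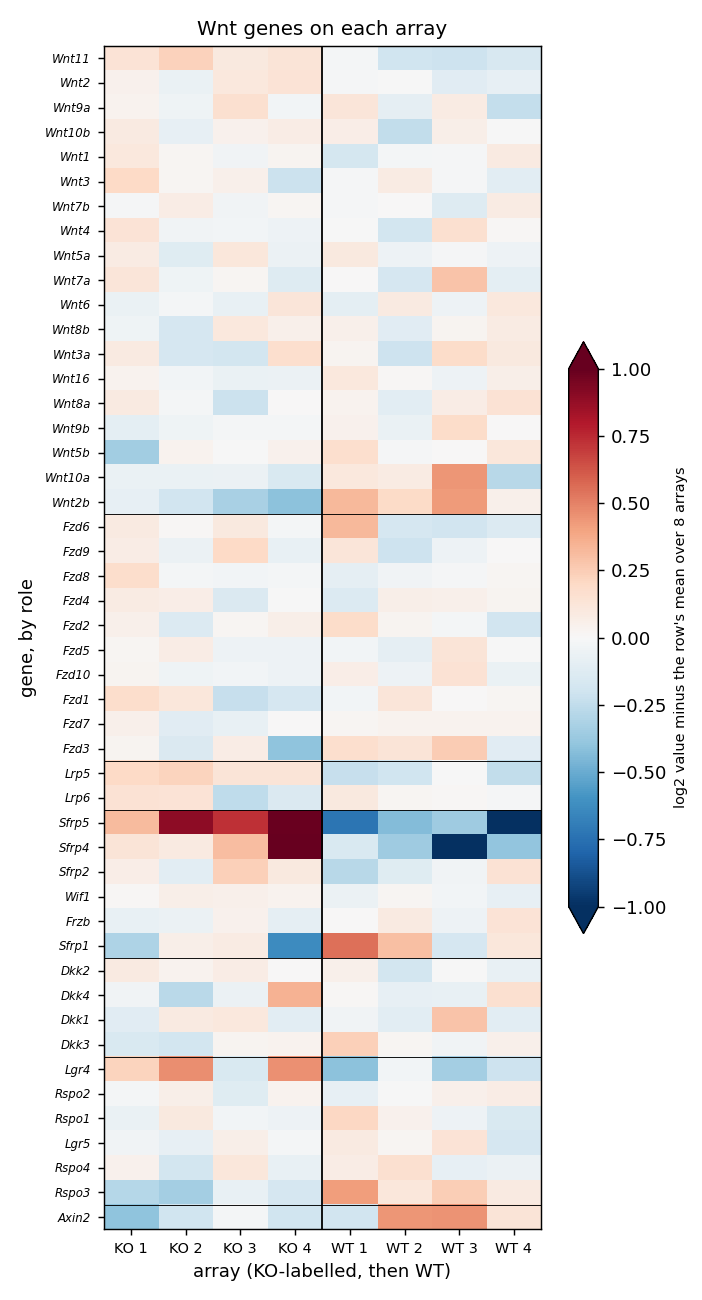
Log2 value of each of the 48 Wnt genes (rows, ordered by role) on each array (columns, knockout-labelled then wild type) minus the mean of that row over the 8 arrays; the colour scale ends at −1 and 1 log2. Sfrp5 shows the strongest contrast between the groups, while the Frizzled and Dickkopf rows are mostly pale.

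The promoters of called genes that the RefSeq table holds are shown for Sfrp5, Wnt2b and Wnt11, since these genes moved beyond the threshold and Rev-erb alpha acts on DNA. RefSeq windows, of the GRCm38.p6 build and running from 250 bases before to 50 bases after a start site, were found for 31 of the 48 genes (34 windows). The motifs searched on both strands were AGGTCA, the half-site of Rev-erb alpha and other nuclear receptors, its longer form TAGGTCA, which contains the first, and, as forms of the TCF and LEF motif, CTTTGAA besides CTTTGAT and besides CTTTGTT. Capitals mark a match, and a sequence all in lower case holds none. The Sfrp5 window is chr19:42202203-42202502 on the minus strand, the Wnt2b window chr3:104961660-104961959 on the minus strand, and the Wnt11 window, one of 2 for this gene, chr7:98834862-98835161 on the plus strand, each printed 5′ to 3′ along the gene.
Sfrp5: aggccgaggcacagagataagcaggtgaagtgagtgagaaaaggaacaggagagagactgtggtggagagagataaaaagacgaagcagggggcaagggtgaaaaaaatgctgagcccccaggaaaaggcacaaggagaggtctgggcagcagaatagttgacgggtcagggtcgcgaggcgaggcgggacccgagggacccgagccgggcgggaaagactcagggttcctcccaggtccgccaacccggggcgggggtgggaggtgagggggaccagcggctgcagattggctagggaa
Wnt2b: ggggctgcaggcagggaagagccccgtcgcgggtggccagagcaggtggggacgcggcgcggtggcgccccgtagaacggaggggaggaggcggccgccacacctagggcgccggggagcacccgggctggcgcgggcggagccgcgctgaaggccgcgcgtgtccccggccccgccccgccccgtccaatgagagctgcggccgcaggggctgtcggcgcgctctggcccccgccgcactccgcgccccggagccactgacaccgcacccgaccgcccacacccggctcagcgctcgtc
Wnt11: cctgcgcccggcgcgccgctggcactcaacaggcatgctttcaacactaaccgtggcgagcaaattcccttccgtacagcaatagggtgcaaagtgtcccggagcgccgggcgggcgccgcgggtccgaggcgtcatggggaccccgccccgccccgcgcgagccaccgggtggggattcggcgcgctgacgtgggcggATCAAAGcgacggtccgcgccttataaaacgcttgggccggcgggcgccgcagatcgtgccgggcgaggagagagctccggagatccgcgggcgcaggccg

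The printed Wnt11 window held CTTTGAT on its minus strand, starting 51 bases before the start site, and the windows of Sfrp5 and Wnt2b held none of the motifs. The other Wnt11 window (chr7:98838595-98838894, not printed) held none of them either. AGGTCA occurred in 2 of the 34 Wnt gene windows (5.88%; Frzb and Wnt16, neither of which passed), against 16.3% of all 32851 windows, and TAGGTCA in 0 of the 34 windows, against 2.61% of all. CTTTGAT occurred in 5.88% of the Wnt gene windows (against 3.73% of all), CTTTGTT in 8.82% (against 5.85%) and CTTTGAA in 2.94% (against 5.14%). The printed windows are rich in G and C, at 61.3% for Sfrp5, 79.7% for Wnt2b and 71.3% for Wnt11, against a median of 52.7% over all windows. A match is a description of the letters in these windows and shows no binding.

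Beyond the ligands, receptors and antagonists, 6 of 67 measured genes of the Wnt pathway passed (8.96%, against 7.40% of all rows), 3 higher and 3 lower. Of 14 measured genes commonly used as beta-catenin targets or feedback genes, Nkd1, Ccn5 and Dact1 passed as higher and none passed as lower. By sign alone, 8 of the 14 lay above 0 and 6 below. Tnfrsf19 did not pass, but its knockout-labelled values all lay below its wild-type values (log2 fold change −0.14, limma adjusted p = 0.221). Axin2, the read-out described above, is not among the 14 and did not pass either (log2 fold change −0.41, limma adjusted p = 0.103). Nkd1, a feedback inhibitor that binds Dishevelled, read 7.38, 7.29, 7.81 and 7.69 log2 on the knockout-labelled arrays, against 6.96, 6.72, 7.08 and 6.96 log2 on the wild-type arrays. The groups did not overlap (log2 fold change 0.61, SE 0.12, 1.52-fold higher, limma adjusted p = 0.0118). Ccn5, a secreted protein also called Wisp2 that is made by fat precursor cells, read 7.18, 7.24, 7.33 and 7.13 log2 on the knockout-labelled arrays, against 6.76, 6.82, 6.84 and 6.83 log2 on the wild-type arrays. It had the smallest adjusted p of the pathway genes (log2 fold change 0.41, SE 0.056, limma adjusted p = 0.00220). Dact1, another Dishevelled-binding modulator, was higher by 0.37 log2 (SE 0.085, limma adjusted p = 0.0270), and its call was lost in 5 of the 8 fits with an array left out (without knockout-labelled array 1, 3 or 4 or wild-type array 3 or 4, adjusted p 0.0502 to 0.0804). With knockout-labelled arrays 1 and 2 only, Ccn5 passed, and Nkd1 was at 0.40 log2 (limma adjusted p = 0.0704) and Dact1 at 0.26 log2 (0.201). The other targets had log2 fold changes of −0.32 to 0.22.

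The 3 other pathway genes that fell were Tcf7l2, Celsr2 and Bcl9l. Tcf7l2, which encodes a DNA-binding partner of beta-catenin, read 8.22, 7.99, 7.79 and 7.74 log2 on the knockout-labelled arrays, against 8.32, 8.68, 8.57 and 8.66 log2 on the wild-type arrays. Every knockout-labelled array lay below every wild-type array (log2 fold change −0.62, SE 0.11, 1.54-fold lower, limma adjusted p = 0.00869), and it was the one of 3 measured TCF and LEF genes that passed. Tcf7l1 also lay lower without overlap (log2 fold change −0.13, limma adjusted p = 0.160), and Lef1 was at −0.10 with overlapping groups (limma adjusted p = 0.490). Celsr2, a cadherin of the planar polarity branch, read 5.99, 5.72, 5.65 and 5.68 log2 on the knockout-labelled arrays, against 6.61, 6.12, 6.25 and 6.66 log2 on the wild-type arrays. It was the one of 11 other receptor and polarity genes that passed (log2 fold change −0.65, SE 0.13, limma adjusted p = 0.0118). With knockout-labelled arrays 1 and 2 only, neither passed, Tcf7l2 being at −0.45 log2 (limma adjusted p = 0.0754) and Celsr2 at −0.55 log2 (0.117). Of 23 transducers of the signal inside the cell, Bcl9l, a beta-catenin cofactor, was lower by a small amount (log2 fold change −0.28, SE 0.073, limma adjusted p = 0.0462), a call that held in 1 of the 8 fits on 7 arrays, the one without wild-type array 1 (adjusted p 0.0597 to 0.111 in the others), and was lost with median centring (0.0677) and with all rows tested (0.0524). None of 3 genes of Wnt secretion and release passed (Wls, the carrier of Wnt proteins to the surface, log2 fold change 0.09, limma adjusted p = 0.501), nor any of 13 modulators of the receptors (Gpc3, a surface proteoglycan, −0.17, limma adjusted p = 0.234).

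**Figure D4:**
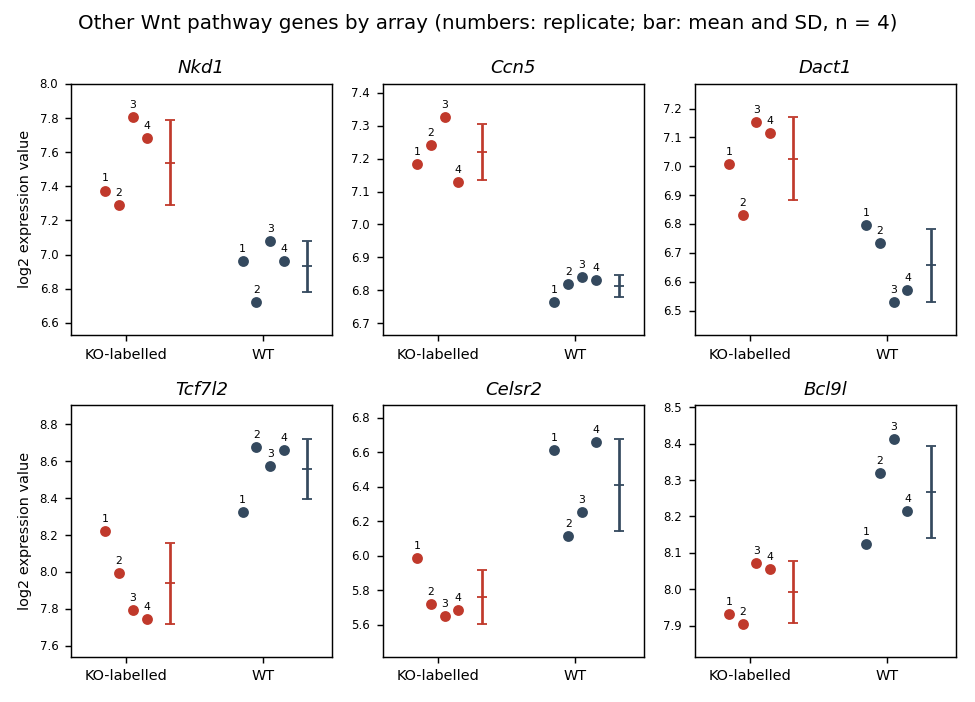
Log2 expression value of the 6 other Wnt pathway genes that passed, on each array (points, numbered by replicate) with the mean and SD of each group of 4, knockout-labelled left and wild type right; each panel has its own vertical scale. Nkd1, Ccn5 and Dact1 lie higher in the knockout-labelled arrays, Tcf7l2, Celsr2 and Bcl9l lower, with the narrowest gap for Dact1 (0.04 log2).

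Markers of some cell types moved with the groups. The mean over 11 measured of 13 progenitor and fibroblast markers was 8.61 to 8.85 log2 on the knockout-labelled arrays, against 8.18 to 8.53 log2 on the wild-type arrays. Of these markers 4 passed as higher (Col1a1, Col3a1, Mfap5 and Pi16) and 0 as lower. Of all rows, 3.81% passed as higher and 3.59% as lower. Pdgfra and Dpp4 did not pass (log2 fold changes 0.14 and 0.12), and Dcn (−0.14) and Cd34 (−0.02) lay below 0. The mean over 10 endothelial markers was 8.47 to 8.59 log2 on the knockout-labelled arrays, against 8.24 to 8.45 log2 on the wild-type arrays, with 2 higher (Cldn5 and Pecam1) and 0 lower. The separation of these endothelial means leaned on Cldn5, which differed by 0.99 log2. The other endothelial markers differed by −0.09 (Egfl7) to 0.20 log2 (Pecam1), with Kdr and Tie1 also below 0. The part of the progenitor and endothelial markers in the differences of the Wnt genes was not tested. The mean over 12 adipocyte markers changed by −0.03 log2, with overlapping groups, 1 marker higher (Lep) and 1 lower (Cebpa). This mean leaned on Lep, which was higher by 0.75 log2, and the median log2 fold change was −0.07. Plin1 (−0.20), Lipe (−0.15) and Pparg (−0.26) did not pass, but their knockout-labelled values lay below all wild-type values. The markers above 0 besides Lep were Lpl, Cidec and Pnpla2, at 0.03 to 0.06 log2. The group means also overlapped for smooth muscle and pericyte markers (2 higher, Acta2 and Rgs5, and 1 lower, Tagln), mesothelial markers (1 higher, Msln), Schwann cell markers (1 lower, Scn7a) and macrophage markers (0 called). Over the 11 measured mesothelial markers the median log2 fold change was −0.19, with only Msln (0.60) and Gpm6a (0.10) above 0. For Wt1 all knockout-labelled values lay below all wild-type values, without passing (log2 fold change −0.21, limma adjusted p = 0.0568). In RNA of whole tissue, fewer cells of a type and less RNA per cell cannot be told apart.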

How the data were processed

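Total RNA of epididymal fat was measured on whole-transcript Affymetrix mouse arrays. The authors deposited 1 log2 expression value for each row and array, made with the tool affy per the submitters' processing notes. For background correction, normalization, summarization and genome build, the method is not given in the sources used here. The scale was read from the values (2.09 to 13.35, array medians 5.90 to 5.95). Row values do not rank transcripts between genes, and having 4 arrays in a group limits the precision.

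Of 23346 rows, the 20748 with exactly 1 symbol in the platform annotation were fitted, KO against WT, with limma 3.58.1 in R 4.3.3 (lmFit, eBayes with default settings, no covariate, no filter on dim rows), two-sided, with Benjamini-Hochberg adjustment over those rows. On simulated data for KO against WT with the spreads of the 20748 rows and 200 rows changed, the fit recovered 80% at a change of 0.5 log2 and 99% at 1 log2, while 6.28% of its 191 calls were false. The simulated noise was independent between rows, and 1536 rows were called in the data. These shares therefore check the fit and need not hold for the calls reported here.

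Named were all called genes, the brightest member and up to 3 with the smallest p of each role group, Axin2, Nr1d1, Arntl, and of the other pathway lists the called genes or, with none, the one with the smallest p. The members, lists and tests were chosen with earlier results of these data known. Alternatives were quantile normalization, median centring, a test of every row, dropping the dimmest 33.3%, trend and robust eBayes, array weights, a block for the replicate number, each array left out, a 1.5-fold minimum, an adjusted p under 0.10 and gene means over rows. Fits on 2 knockout-labelled arrays were added after the data were seen.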

Additional observations from a re-analysis of the deposited data

Results flagged for a closer look

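Each group of 4 values of the 30 named genes was checked for an array far from its fellows by Dixon's criterion at its 95% critical value for the gap over the range. Of 60 groups, 4 had one, and chance alone flags about 5% of groups. Knockout-labelled array 4 read 7.47 log2 for Sfrp4, while the others of its group read 6.11 to 6.33 log2. Knockout-labelled array 1 read 6.39 log2 for Fzd8, against 6.19 to 6.20 log2 in its group. Knockout-labelled array 2 read 6.65 log2 for Arntl, against 6.94 to 6.95 log2. Wild-type array 1 read 10.7 log2 for Fzd4, against 10.8 to 10.9 log2.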

How the results depend on the processing

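The 5 called Wnt genes were all called again in the 16 listed settings that set no fold minimum and left out no dim rows, each left-out array included, with 5 to 7 Wnt genes called. Without the dimmest 33.3% of rows, 35 Wnt genes remained in the test, Rspo3 no longer among them, and 5 were called, Lgr4 included. A 1.5-fold minimum left 1 Wnt gene (Sfrp5), 3 other pathway genes and 326 rows. An adjusted p under 0.10 gave 2552 rows. With single arrays left out, 913 to 1418 rows were called, against 1536 with all arrays, and 4 to 6 of the other pathway genes. With knockout-labelled arrays 1 and 2 alone, 701 rows, 4 Wnt genes (Sfrp5, Lrp5, Rspo3 and Lgr4) and 2 other pathway genes were called, and with arrays 3 and 4 alone 1822 rows, 3 Wnt genes (Sfrp5, Sfrp4 and Wnt2b) and 7 other pathway genes.

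Deviations of same-numbered arrays from their group means correlated by −0.0674 to 0.134. With 4 arrays in a group, these values cannot decide whether the replicate numbers pair the samples. With the replicate block, 1105 rows, 7 Wnt genes (Lgr4, adjusted p = 0.0205, and Axin2, adjusted p = 0.0282, in addition) and 5 other pathway genes were called by limma, Amer1 in addition and without Bcl9l (adjusted p = 0.0571) and Dact1 (0.073). Log2 fold changes near 0 changed sign: Dkk1 was 0.00379 with median centring, 0.00485 with array weights and −0.0529 to 0.0774 with single arrays left out. Fzd4 was −0.019 with quantile normalization, −0.0441 to 0.0493 over those fits, and −0.0746 when arrays 3 and 4 stood for the knockout-labelled group. Lrp6 was −0.118 to 0.017 and Rspo4 −0.0938 to 0.00288 over the same fits. In the fit on arrays 1 and 2 of the knockout-labelled group, Lrp6 was 0.112 and Nr1d1 0.0265. The cause was not tested.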

Other observations

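Among the Wnt genes, Fzd1, chosen after its values were seen, divided the knockout-labelled arrays like Lrp6. It read 7.95 and 7.89 log2 on arrays 1 and 2 and 7.55 and 7.61 log2 on arrays 3 and 4, against 7.74 to 7.90 log2 on the wild-type arrays. Wnt10a, chosen in the same way, varied more in wild-type than in knockout-labelled fat, with an SD of 0.042 log2 over the knockout-labelled arrays and 0.297 log2 over the wild-type arrays, a difference in spread that was not tested.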
